A study of Hordeum vulgare with 22 samples.

Results

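Barley genes annotated as disease resistance proteins were followed in young inflorescences of the near-isogenic line mnd1.a and of its parent cultivar Bowman. A gene was taken when its annotation held the words "disease resistance protein", and genes starting between 620 and 660 Mb on chromosome 7H or between 170 and 240 Mb on chromosome 2H were left out. This gave 261 genes of the 24318 in the table, out of 291 disease resistance genes at all positions, with 28 in the 7H stretch and 2 in the 2H stretch. Counts of 216 of the 261 were high enough to be tested, and the other 45 averaged between 0.0662 and 0.376 CPM over the 21 libraries. CPM, the unit of level used throughout, is a gene's count scaled to the size of its library and takes no account of transcript length. The share left untested was 17.2% of these genes and 13.1% of all genes.

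The mnd1.a plants carry the mnd1.a allele in the Bowman background, and the Bowman plants are the wild type. Both were grown in long days, and RNA was taken at midday from the inflorescence together with its base and the small leaves beneath. Stages W2.0, W3.5 and W5.0 on the Waddington scale of spike development were sampled, with 3, 3 and 4 libraries of mnd1.a and 3, 4 and 4 of Bowman. A lone sample of cultivar Mesa entered no comparison. Each genotype is a single line. No label ties the libraries to different plants, so the p-values reflect the spread between these libraries, which may be technical.

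Most plant resistance genes of this kind encode intracellular immune receptors, often called NLRs. A nucleotide-binding NB-ARC domain works as a molecular switch, a leucine-rich repeat (LRR) domain takes part in recognising pathogen molecules or their effects, and the front end is usually a coiled coil (CC) or a TIR domain. Such genes often sit in clusters of related copies, and cereal genomes carry coiled-coil types and almost no complete receptors of the TIR type. The proteins named in the annotations as relatives are known from other species: RPM1, RPP8 and RPP13 are Arabidopsis receptors, the first for a bacterial pathogen and the others for downy mildew, and RGA2 is a potato-family receptor for late blight. None of these roles is established by the table for the barley genes.

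Of the 261 genes, 228 had an NB-ARC domain in the deposited annotation, 205 had LRRs and 189 had both. There were 39 with NB-ARC and no LRR, 16 with LRR and no NB-ARC, and 17 with neither. The wording of the annotation named a CC-NBS-LRR protein for 46, an RPM1-type protein for 29, an RGA2 type for 14, an RPP13 type for 11, an NBS-LRR protein for 6, a TIR-NBS type for 5, an RPP8 type for 2 and an NB-ARC protein for 2, while 146 carried no further family name. Only 1 of the 5 genes named TIR-NBS, HORVU3Hr1G073690, had a TIR domain listed. A further kind of domain was listed for 14, among them BED zinc fingers in 3, a WRKY domain in HORVU5Hr1G085900, an AUX/IAA domain in HORVU2Hr1G011300 and an Exo70 domain in HORVU2Hr1G003540.

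The genes were spread unevenly over the chromosomes, with 46 on 7H, 46 on 5H, 44 on 3H, 43 on 1H, 39 on 2H, 18 on 6H, 9 on 4H and 16 unplaced. Genes within 1 Mb of the previous one on the same chromosome were joined, so a group can span more than 1 Mb. This formed 49 groups that held 157 of them, and 88 placed genes stood alone. The most crowded groups had 8 genes each, on 3H at 27005692 to 28636484 and at the end of 7H at 8611 to 1802913. Positions are those of the deposited table, and the sources used here name no genome build for them.

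The libraries held between 11436651 and 21596190 estimated counts, and 3 counts corresponded to between 0.13 and 0.253 CPM. Disease resistance genes took few of them. Averaged over all 21 libraries, 83 of the 261 lay under 1 CPM, which is 31.8% against 23.6% of all genes. Another 96 lay between 1 and 10 CPM and 82 at 10 CPM or more. The median level of the tested genes was 6.47 CPM, against 12.1 CPM for all tested genes. No member was at 0 in every library. In tissue that mixes cell types, fewer cells of a type and less RNA per cell cannot be told apart.

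A technical label touches the comparisons. The library code prefix in the sample titles is 1328 for both lines at W2.0 and 1327 for both lines at W3.5, but at W5.0 it is 1328 for mnd1.a and 1327 for Bowman. Transcripts annotated as senescence-associated proteins or as homing endonucleases encoded in ribosomal RNA introns followed it. These 110 genes outside the stretches are taken here as transcripts resembling ribosomal RNA. Their summed level at W5.0 was 22174 to 25299 CPM in mnd1.a and 1998 to 3343 CPM in Bowman, and 73 of 78 tested were called higher in mnd1.a. At W2.0 the sums were 11979.5 to 14918 CPM in mnd1.a and 17879 to 26761 CPM in Bowman, and at W3.5 they were 2087 to 3094 CPM for mnd1.a and 2305 to 2651 CPM for Bowman. At W5.0 the prefix and the line therefore cannot be told apart, and no within-prefix value exists for that comparison. With all genes of such annotations removed before the fit, at any position, 52 members were called at W5.0 in place of 54. This alternative was chosen after seeing the data.

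Summed over the 261 genes, expression hardly separated the lines. At W2.0 the sum was 2919 ± 160.2 CPM for mnd1.a and 2834 ± 321 CPM for Bowman (SD, n = 3 each). At W3.5 it was 3139 ± 256 CPM in mnd1.a (n = 3) and 3120.0 ± 360.4 CPM in Bowman (n = 4), and at W5.0 it was 3102 ± 79.8 in mnd1.a, against 3413 ± 352 CPM in Bowman (n = 4 each). At each stage the lines differed by less than the Bowman SD, and their ranges overlapped.

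At W2.0, when the lines were youngest, 0 of 216 disease resistance genes were called by edgeR's quasi-likelihood test at an adjusted p under 0.05, against 0.79% of all tested genes. At edgeR's unadjusted p under 0.05 there were 18 of 216 members, against 1896 of 21132 tested genes. DESeq2 and limma-voom also called 0 members. At W3.5 there were 3 calls (1.39%), each higher in mnd1.a, against 3.91% of all tested genes in either direction and 1.77% higher. Without Bowman replicate 1 there were 19 calls at W3.5, without mnd1.a replicate 3 there were 7, without Bowman replicate 3 there were 6, and with only the compared groups in the fit there were 0. At W5.0, 54 were called (25%), with 20 higher and 34 lower in mnd1.a, against 30.2% of all tested genes, 15% higher and 15.2% lower. Without mnd1.a replicate 2 the count at W5.0 was 32, without Bowman replicate 2 it was 33, and without mnd1.a replicate 3 it was 36. All 3 genes called at W3.5 were also called at W5.0, so 54 genes were called at any stage. The median log2 fold change over the tested members was 0.00, 0.06 and -0.05 in stage order, and over all tested genes it was -0.01 at each.

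**Figure D1:**
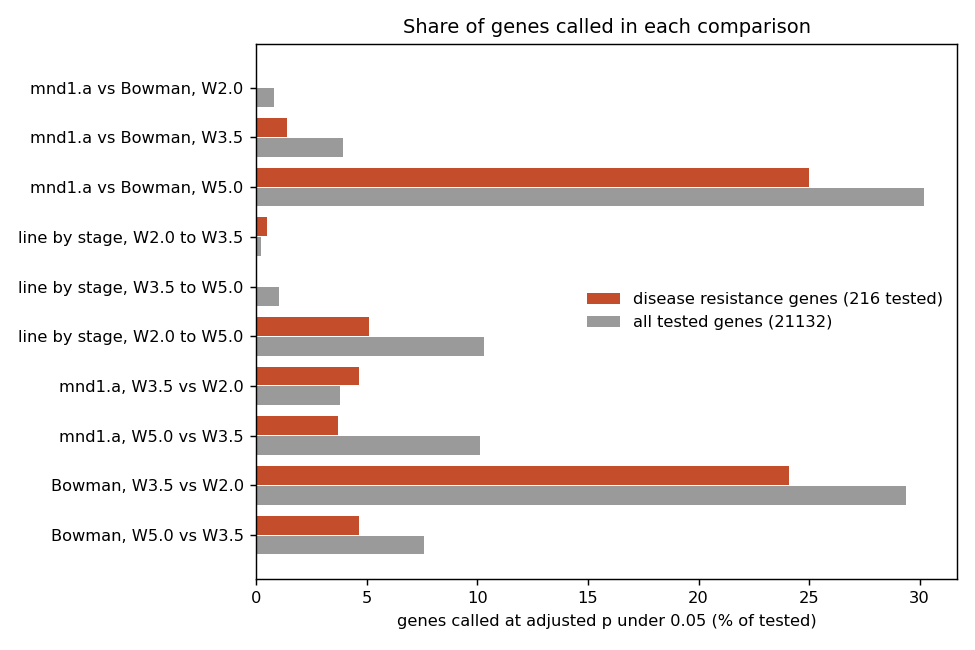
Share of genes called at an adjusted p under 0.05, in percent of those tested (x axis), in each of 10 comparisons (y axis), for the 216 disease resistance genes (upper bar of each pair) and all 21132 tested genes (lower bar). At W5.0 the shares were 25% and 30.2%, and at W2.0 they were 0% and 0.79%.

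The share of members whose libraries did not overlap between the lines ran below that of all genes at each stage: 34 of 216 against 18.4% at W2.0, 24 (11.1%) against 12.9% at W3.5, then 58 (26.9%) against 34.2% at W5.0. At W5.0, 44 of the 54 called members (81.5%) had no overlap, against 5549 of the 6381 called genes in all (87%). Of these 54, 27 (50%) had a log2 fold change of the same sign at all 3 stages, against 44.8% of all called genes.

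For comparison, the disease resistance genes inside the 7H stretch were counted in the same fit. Calls among the 23 tested there numbered 6 (26.1%), 11 (47.8%) and 16 (69.6%) in stage order. The members on the rest of 7H gave 12 calls of 39 at W5.0 (30.8%), and those away from 7H and 2H gave 36 calls (24.5%). These shares are a description, since the difference between the stretches was not tested.

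Values just outside and just inside the position limits were as follows. HORVU7Hr1G106510 starts just before 620 Mb on 7H, at 619995418, and ends at 620003161, so its end lies past the limit, and its mean at W5.0 was 3.60 in mnd1.a and 11.4 CPM in Bowman. The first disease resistance gene inside, HORVU7Hr1G106950 at 621099959, averaged 1.29 in mnd1.a and 1.35 CPM in Bowman, and the last inside, HORVU7Hr1G122200, was under the filter. Around the 2H stretch, HORVU2Hr1G036060 (0.0205 CPM in mnd1.a, 0.154 CPM in Bowman) and HORVU2Hr1G065060 (2.24 in mnd1.a, 2.76 in Bowman) lay outside, and HORVU2Hr1G037710 (22.4 in mnd1.a, 31.1 in Bowman) and HORVU2Hr1G038230 (27.3 in mnd1.a, 36.2 in Bowman) lay inside.

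At W5.0, 11 of the 216 tested members (5.09%) were called at 2-fold or more, 8 of them higher in mnd1.a and 3 lower, against 6.4% of all tested genes. These made up 11 of the 54 calls, against 21.2% of the calls over all genes. Among the 72 tested members with the lowest mean level, under 3.30 CPM, 10 were called, 7 higher and 3 lower (13.9%, against 16.2% of all genes in that range). The middle 72 gave 16 calls, 5 higher and 11 lower (22.2% against 27.4%). The 72 at 13.3 CPM or more gave 28 calls, 8 higher and 20 lower (38.9% against 39.7%), and none of these reached 2-fold. All genes of the highest range split into 1992 higher and 2041 lower.

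**Figure D2:**
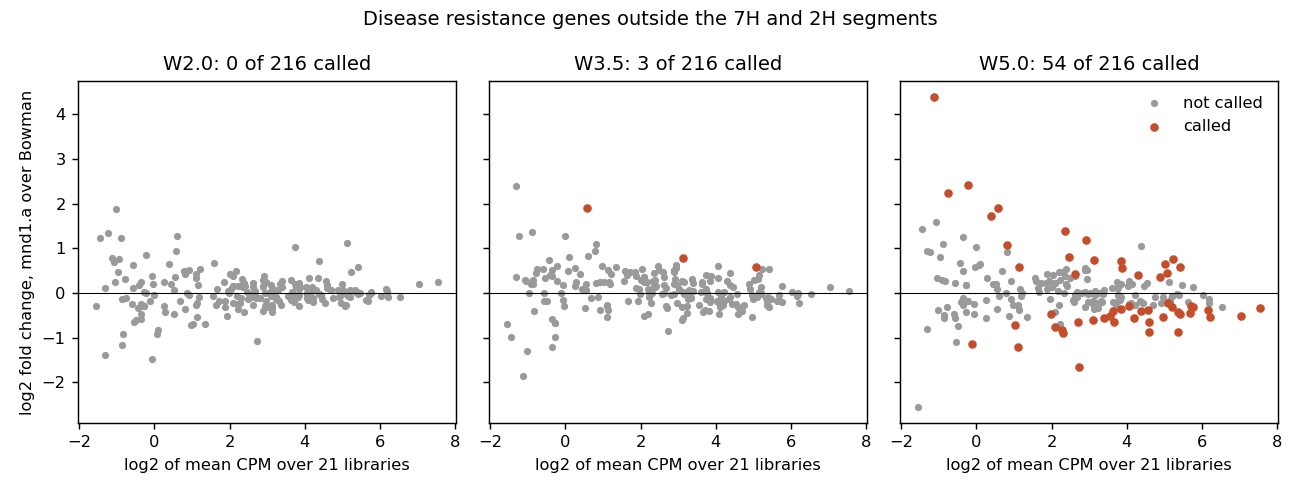
Log2 fold change of mnd1.a over Bowman (y axis) against the log2 of the mean level in CPM over 21 libraries (x axis) for the 216 tested disease resistance genes at each stage. Red points are called at an adjusted p under 0.05: the W5.0 panel has 54, the W3.5 panel 3 and the W2.0 panel none, and at W5.0 the 2-fold calls lie to the left and most calls to the right are negative.

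Among the CC-NBS-LRR genes, HORVU3Hr1G012800 was called at both W3.5 and W5.0. It lies on 3H at 27747968 to 27752794, in the crowded group there, with an NB-ARC domain and no LRR listed. At W5.0 it had 3.63, 3.01, 1.82 and 2.14 in mnd1.a, against 0.443, 0.835, 0.845 and 0.698 CPM in Bowman, a log2 fold change of 1.91 ± 0.37 (SE; adjusted p = 0.00091). At W3.5 it had 2.06, 1.83 and 2.87 in mnd1.a and 0.959, 0.0830, 0.689 and 0.590 CPM in Bowman (1.90 ± 0.40, adjusted p = 0.0104). Every mnd1.a library lay above every Bowman library at these stages and also at W2.0, where the values were 1.91, 1.95 and 1.95 in mnd1.a and 1.10, 1.02 and 0.866 CPM in Bowman without a call (adjusted p = 0.484). With only the groups compared in the fit, the call at W3.5 was lost (adjusted p = 0.217), and that at W5.0 was kept.

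Other CC-NBS-LRR genes with 2-fold changes went both ways. HORVU7Hr1G002900, near the start of 7H at 5405477 to 5408654 and with LRRs but no NB-ARC domain listed, had 8.49, 9.50, 8.25 and 8.05 CPM in mnd1.a at W5.0 and 5.98, 3.47, 3.38 and 2.03 CPM in Bowman. The lines did not overlap, and the log2 fold change was 1.19 ± 0.33 (adjusted p = 0.0107). HORVU7Hr1G028970, on 7H at 54007451 to 54028470, had 0.577, 0.309, 0.303 and 0.329 in mnd1.a and 0.754, 0.578, 0.957 and 1.08 CPM in Bowman (-1.14 ± 0.39, adjusted p = 0.0318). Its highest mnd1.a library nearly touched the lowest Bowman library. Its call was lost without mnd1.a replicate 2, 3 or 4 or Bowman replicate 3 or 4 (adjusted p between 0.0718 and 0.0839), with DESeq2 (0.0582) and with limma-voom (0.0710).

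HORVU0Hr1G031070, an unplaced CC-NBS-LRR gene with LRRs only, rested on few reads. It had 0, 1.78, 0.530 and 0.739 CPM in mnd1.a at W5.0 and 0, 0, 0.0563 and 0.0634 CPM in Bowman. One mnd1.a library was at 0 like 2 Bowman libraries, so the lines overlapped. The summed counts were 39 in mnd1.a and 2 in Bowman, a ratio of 27.7 after scaling with an exact 95% counting interval of 7.17 to 237, which covers counting error only. The call (adjusted p = 0.0166) was lost without mnd1.a replicate 2 (0.0731) and with limma-voom (0.184).

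Of the 41 CC-NBS-LRR genes tested, 13 were called at W5.0, 3 higher and 10 lower (31.7%), against 30.2% of all tested genes, 15% higher and 15.2% lower. The highest level of all members belonged to HORVU7Hr1G000040 of this class, on 7H at 813582 to 839104, in counts not corrected for transcript length. It had 161, 156, 160.1 and 162 CPM in mnd1.a at W5.0 and 181, 240, 203 and 183 CPM in Bowman, with no overlap and a log2 fold change of -0.33 ± 0.10 (adjusted p = 0.0131). HORVU5Hr1G085900, which carries the WRKY domain of a transcription factor family, averaged 34.3 ± 1.59 in mnd1.a, against 40.3 ± 3.6 CPM in Bowman (n = 4 each, SD), and was called with the least fold change of all, -0.23 ± 0.08 (adjusted p = 0.0457).

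Among genes named for RPM1, 1 of 21 tested was called at W5.0 (4.8%, against 30.2% of all tested genes, a difference that was not tested). That gene was HORVU7Hr1G106510, at the limit of the 7H stretch, which has both domains. It had 3.63, 4.01, 3.56 and 3.20 in mnd1.a and 7.80, 13.9, 13.2 and 10.8 CPM in Bowman, a log2 fold change of -1.66 ± 0.27 (adjusted p = 0.000214), the most negative among called members. All mnd1.a libraries lay below all Bowman libraries at W5.0 and at W2.0, where they had 2.65, 3.43 and 2.80 CPM against 7.62, 4.08 and 7.12 CPM in Bowman (-1.08 ± 0.32, adjusted p = 0.149), and at W3.5 the lines overlapped. Among RGA2-type genes 1 of 10 was called (10%), lower, and among RPP13-type genes 1 of 7 (14.3%), beside the same 30.2%. The RPP13-type gene was HORVU7Hr1G000630, on 7H at 954456 to 958030 and second in mean level of all members, with 94.5, 92.6, 99.4 and 82.0 in mnd1.a and 128, 117, 165 and 116 CPM in Bowman (-0.51 ± 0.16, adjusted p = 0.0209). Its lines did not overlap.

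The TIR-NBS genes gave 2 calls of 4 tested at W5.0, beside 30.2% of all tested genes. These were HORVU1Hr1G002990 and HORVU1Hr1G003140, neighbours on 1H at 6282610 to 6286015 and 6546329 to 6560512. Neither has an NB-ARC or TIR domain listed, only LRRs. HORVU1Hr1G002990 had 0.495, 0.926, 1.06 and 0.657 CPM in mnd1.a at W5.0 and 0.355, 0.128, 0.0563 and 0.0634 CPM in Bowman (2.23 ± 0.63, adjusted p = 0.0122). HORVU1Hr1G003140 had 2.39, 1.39, 1.89 and 1.56 in mnd1.a and 0.532, 0.578, 0.957 and 0.0634 CPM in Bowman (1.73 ± 0.52, adjusted p = 0.0165). In both genes every mnd1.a library was above every Bowman library at W5.0, and the lines overlapped at the earlier stages. For HORVU1Hr1G002990 the gap at W5.0 rested on few reads, since 3 counts corresponded to 0.247 CPM in mnd1.a replicate 1 and 0.133 CPM in Bowman replicate 1. The 14 tested genes with LRRs but no NB-ARC domain gave 5 calls (35.7%), all higher in mnd1.a, of which 4 were 2-fold or more. The 164 with both domains gave 42 (25.6%), 13 higher and 29 lower. Over all tested genes 15% were called higher and 15.2% lower, and the difference between the domain classes was not tested.

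Genes with no further family name gave 34 calls of 126 at W5.0, 13 higher and 21 lower (27%), against 30.2% of all tested genes. HORVU1Hr1G000860, on 1H at 2302070 to 2309447, had 0.330, 1.08, 0.681 and 0.986 CPM in mnd1.a at W5.0 and 0.222, 0, 0.225 and 0.0634 CPM in Bowman (2.43 ± 0.60, adjusted p = 0.00537). HORVU7Hr1G008210, on 7H at 10735950 to 10741078, had 11.5, 13.5, 10.2 and 11 in mnd1.a and 2.26, 4.30, 6.87 and 4.25 CPM in Bowman (1.39 ± 0.46, adjusted p = 0.0290). The lines did not overlap for either gene at W5.0. For HORVU1Hr1G000860 the gap rested on few reads. At W5.0, 3 counts corresponded to 0.247 CPM in mnd1.a replicate 1, and to 0.133 and 0.169 CPM in Bowman replicates 1 and 3. Its call was kept whichever library was left out. The call of HORVU7Hr1G008210 was lost without mnd1.a replicate 2 or 4 or Bowman replicate 1, 2 or 4 (adjusted p between 0.0510 and 0.0705).

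HORVU1Hr1G089960, on 1H at 545019811 to 545097427, stood at 2.97, 3.17, 3.18 and 2.38 CPM in mnd1.a at W5.0 and 0.887, 1.67, 1.52 and 1.52 CPM in Bowman (1.07 ± 0.27, adjusted p = 0.00701). The lines did not overlap at W5.0 and did at W2.0 and W3.5. HORVU5Hr1G122660, on 5H at 662623162 to 662629405, is one of the genes with a BED zinc finger, a DNA-binding domain found fused to some cereal receptors. It had 1.32, 1.24, 1.29 and 0.986 in mnd1.a and 2.97, 3.15, 2.65 and 2.35 CPM in Bowman (-1.2 ± 0.19, adjusted p = 0.000207). All 4 mnd1.a libraries were below all Bowman libraries. The other BED genes, HORVU6Hr1G093470 and HORVU6Hr1G093490, were not called (adjusted p = 0.792 and 0.128).

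**Figure D3:**
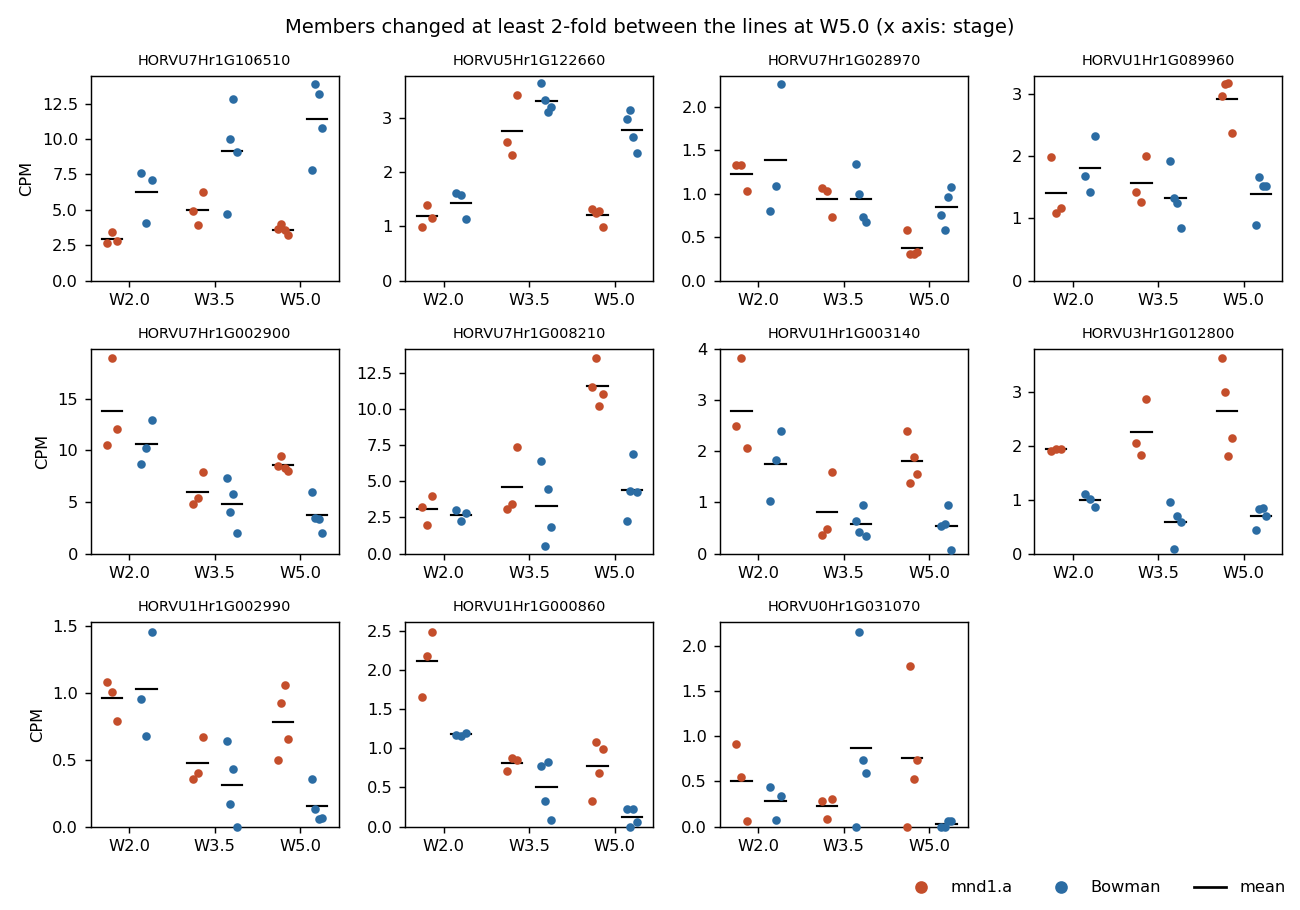
Level in CPM (y axis of each panel) of the 11 disease resistance genes called at 2-fold or more at W5.0, by stage (x axis), with mnd1.a (red) left of Bowman (blue); each point is 1 library and each line a group mean. In 10 panels the lines do not overlap at W5.0, and in that of HORVU0Hr1G031070 they do.

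The calls at W5.0 were also counted by chromosome. On 5H all 8 calls of 37 tested were lower in mnd1.a and on 4H all 4 of 9 were lower, while on 1H all 4 of 36 and among unplaced genes all 3 of 12 were higher. On 2H there was 1 higher and 5 lower, on 3H 4 higher and 7 lower, on 6H 3 of each and on 7H 5 higher and 7 lower. Of all tested genes outside the stretches, 472 were called higher and 439 lower on 5H, 350 and 389 on 4H, 348 and 355 on 1H, and 138 and 101 unplaced. The members were called at 21.6% on 5H, 44.4% on 4H, 11.1% on 1H and 25% unplaced, against 30.2%, 32.8%, 30.2% and 28.3% of all tested genes there. On 2H, 3H, 6H and 7H the shares were 20%, 30.6%, 35.3% and 30.8% of the members, against 29.5%, 27%, 30.4% and 29.3% of all tested genes. With 3 to 12 calls on a chromosome, neither the direction nor the share was tested against that of all genes.

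**Figure D4:**
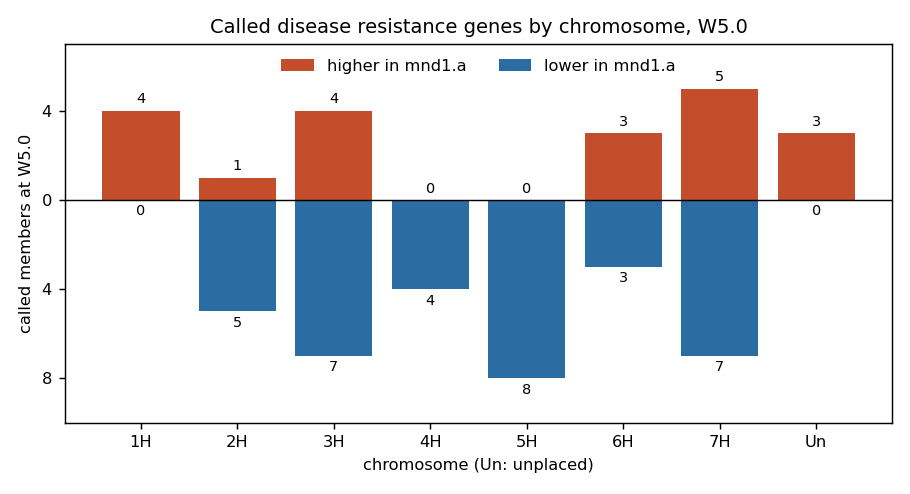
Number of disease resistance genes called at W5.0 (y axis) on each chromosome (x axis; Un, unplaced), higher in mnd1.a above the line and lower below it. The calls on 4H and 5H were all lower and those on 1H and the unplaced genes all higher in mnd1.a.

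Among the 49 groups of neighbours, 8 held at least 2 calls at W5.0, and in 5 of these the calls went the same way. Gene by gene, 25% of the tested members and 30.2% of all tested genes were called at W5.0. Groups of neighbours were not counted over all genes. Neither the number of calls in a group nor their shared direction was tested. At the end of 7H, 4 of 6 tested genes were lower in mnd1.a: HORVU7Hr1G000040 and HORVU7Hr1G000630, given above, and HORVU7Hr1G000020 and HORVU7Hr1G000230. HORVU7Hr1G000020 averaged 17.6 ± 1.56 in mnd1.a, against 23.2 ± 2.79 CPM in Bowman, and HORVU7Hr1G000230 averaged 31.9 ± 1.49 in mnd1.a, against 46 ± 9.68 CPM in Bowman (n = 4 each, SD). On 4H at 63227047 to 64252294, HORVU4Hr1G015800 (67.5 ± 3.62 CPM in mnd1.a, 88.6 ± 13.0 CPM in Bowman) and HORVU4Hr1G016010 (20.1 ± 1.12 CPM in mnd1.a, 31.4 ± 5.52 CPM in Bowman) were both lower. In the group of 8 on 3H, HORVU3Hr1G012800 was called higher and HORVU3Hr1G012510 lower. Neighbours can share reads: in 3 pairs (HORVU7Hr1G046380 and HORVU7Hr1G046390, HORVU5Hr1G017940 and HORVU5Hr1G017950, HORVU5Hr1G085920 and HORVU5Hr1G085940) the counts were identical in every library, so their separate values are uncertain. None of the 6 was called in a line comparison.

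Whether the line difference itself changed with stage was tested by the interaction of line and stage. From W2.0 to W3.5 it was called for 1 member (0.463%), toward mnd1.a, against 0.189% of all tested genes and 0.0568% in that direction. Without mnd1.a W3.5 replicate 3 there were 3. From W2.0 to W5.0 it was called for 11 (5.09%), 3 toward mnd1.a and 8 toward Bowman, against 10.3% of all tested genes, 5.09% and 5.19% in those directions. This count was 3 without mnd1.a W2.0 replicate 3 or Bowman W2.0 replicate 2, 4 without Bowman W2.0 replicate 1, 6 without mnd1.a W5.0 replicate 2 or 4 or Bowman W5.0 replicate 3, and 7 without mnd1.a W2.0 replicate 1 or 2 or mnd1.a W5.0 replicate 3. It was 17 without Bowman W2.0 replicate 3 and 18 with only the compared groups in the fit. Of 72 green leaf markers, 35 had a called interaction from W2.0 to W5.0, 2 toward mnd1.a and 33 toward Bowman. Of 78 tested transcripts resembling ribosomal RNA, 65 had a called interaction, all toward mnd1.a. The part of either set in the member values was not tested. From W3.5 to W5.0 edgeR called 0, limma-voom 0 and DESeq2 2, against 1.02% of all tested genes by edgeR. At edgeR's unadjusted p under 0.05 there were 18 of 216 members, against 2833 of 21132 tested genes. The interactions share libraries with each other and with the line comparisons, and those that reach W5.0 share its prefix.

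The gene called from W2.0 to W3.5 was HORVU0Hr1G015230, an unplaced gene of a single NB-ARC domain. At W2.0 it had 24.7, 25.7 and 24.8 in mnd1.a, against 28.9, 31.6 and 31.3 CPM in Bowman. At W3.5 it had 38.8, 41.7 and 48.1 in mnd1.a, against 30.5, 31.6, 27.4 and 25.4 CPM in Bowman, and at W5.0 it had 43.7, 43.5, 38.7 and 44.3 CPM, against 30.4, 31.3, 35.2 and 28.8 CPM. All mnd1.a libraries were below all Bowman libraries at W2.0 (-0.29 ± 0.10, adjusted p = 0.279) and above them at W3.5 (0.58 ± 0.09, adjusted p = 0.00105) and W5.0 (0.44 ± 0.08, adjusted p = 0.00101). The interaction was 0.87 ± 0.14 from W2.0 to W3.5 (adjusted p = 0.00812) and 0.73 ± 0.13 from W2.0 to W5.0 (adjusted p = 0.00215). Within mnd1.a the step from W2.0 to W3.5 was 0.78 ± 0.10 on the log2 scale (adjusted p = 6.65e-05). With only the compared groups in the fit, the first interaction was lost (adjusted p = 0.0814).

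HORVU6Hr1G010100, on 6H at 17883217 to 17888933 with both domains, was called at W3.5 and W5.0 and had a called interaction. It had 5.14, 6.55 and 4.62 in mnd1.a and 7.33, 6.40 and 5.93 CPM in Bowman at W2.0, with overlap. At W3.5 it had 7.89, 9.14 and 10.1 in mnd1.a and 5.24, 3.65, 7.02 and 4.80 CPM in Bowman, and at W5.0 it had 14, 17.4, 13.6 and 17.1 in mnd1.a and 7.45, 9.06, 8.50 and 12.2 CPM in Bowman. The lines did not overlap at W3.5 (0.79 ± 0.20, adjusted p = 0.0312) or W5.0 (0.74 ± 0.18, adjusted p = 0.00440), and the interaction from W2.0 to W5.0 was 1.01 ± 0.28 (adjusted p = 0.0285). Leaving out any of 7 of the 14 libraries took that interaction past the threshold, to an adjusted p of 0.0914 at most, without mnd1.a W2.0 replicate 3.

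On the other side, HORVU4Hr1G051540, an NB-ARC gene on 4H at 423644588 to 423646873, had 2.65, 3.43 and 3.53 in mnd1.a and 2.57, 2.52 and 2.40 CPM in Bowman at W2.0, but 3.79, 3.63, 3.94 and 3.37 in mnd1.a and 4.21, 7.07, 8.50 and 5.39 CPM in Bowman at W5.0. The lines did not overlap at either stage, with mnd1.a above at W2.0 and below at W5.0, and the interaction was -1.13 ± 0.28 (adjusted p = 0.0166; 0.0545 without mnd1.a W2.0 replicate 3 and 0.0579 with limma-voom). HORVU6Hr1G028220 had 21.4, 18.6, 20 and 17.2 in mnd1.a and 28.3, 56, 31.9 and 25.9 CPM in Bowman at W5.0 (-0.87 ± 0.19, adjusted p = 0.00251), after 19.1, 17.9 and 19.3 in mnd1.a and 14.6, 18.7 and 18.7 CPM in Bowman at W2.0. Bowman replicate 2 stood far above the others at W5.0. Its interaction of -0.99 ± 0.29 (adjusted p = 0.0395) was lost when any of 8 of the 14 libraries was left out, to 0.110 at most. That of HORVU1Hr1G089960, 1.44 ± 0.43 (adjusted p = 0.0382), was lost for 9 of the 14, to 0.112 at most.

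**Figure D5:**
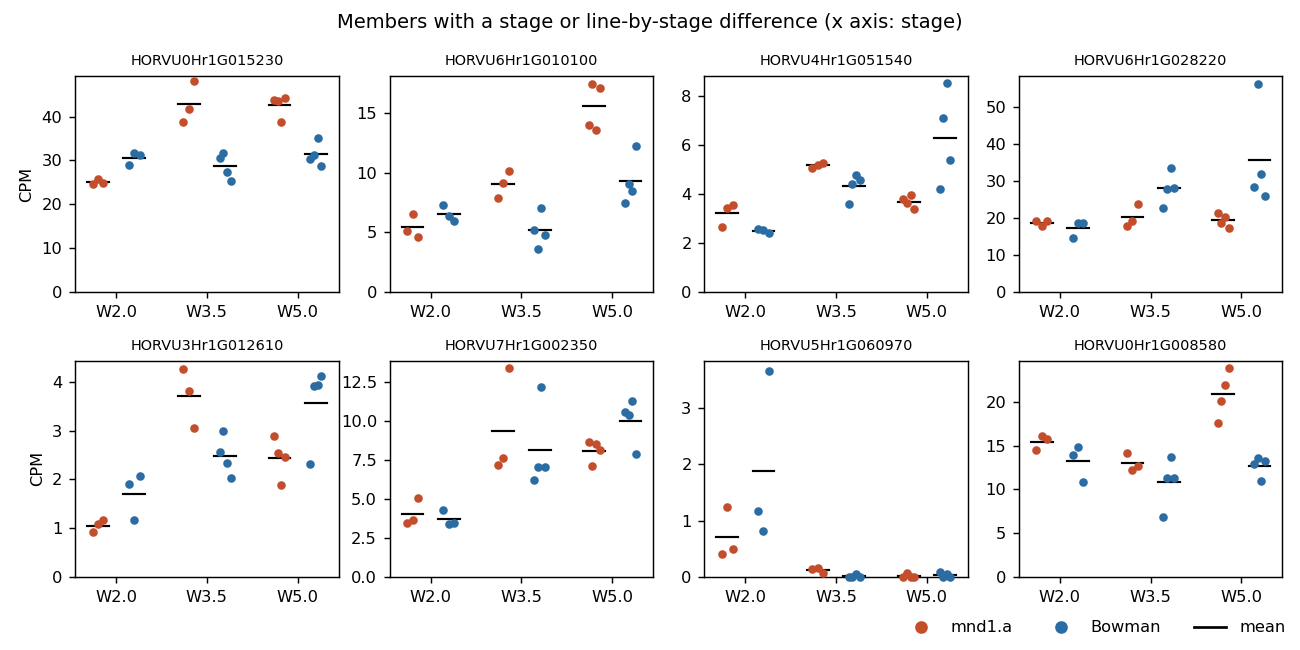
Level in CPM (y axis of each panel) of 8 disease resistance genes named for an interaction or a stage step, by stage (x axis), with mnd1.a (red) left of Bowman (blue); each point is 1 library and each line a group mean. The upper row shows 4 genes whose line difference changed with stage, such as HORVU0Hr1G015230, below Bowman at W2.0 and above it later.

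Over development, Bowman between W2.0 and W3.5 had the most called members. There 52 were called (24.1%), 36 up and 16 down, against 29.4% of all tested genes (14.2% up and 15.2% down), and the median log2 step was 0.13, against 0.00 over all tested genes. The same interval in mnd1.a gave 10 calls (4.63%), all up, against 3.78% of all tested genes and 1.59% up. From W3.5 to W5.0 mnd1.a gave 8 (3.7%), 2 up and 6 down, against 10.1% (5.12% up and 5.01% down), and Bowman gave 10 (4.63%), 8 up and 2 down, against 7.59% (3.89% up and 3.7% down). The library prefix changed within all of these intervals except W3.5 to W5.0 in Bowman, so prefix and stage cannot be told apart in them. With only the compared groups in each fit, the counts were 17 and 23 in mnd1.a and 19 and 0 in Bowman, so this order did not hold, and without Bowman W3.5 replicates 2 and 4 the Bowman counts were 26 and 24. Leaving out 1 library moved them too. The first-interval count in mnd1.a was 4 without W2.0 replicate 1 and 5 without W2.0 replicate 2 or 3 or W3.5 replicate 1, and that in Bowman was 32 without W2.0 replicate 1 and 33 without W2.0 replicate 2. The second-interval count in mnd1.a was 1 without W5.0 replicate 4, 2 without W3.5 replicate 1 or 2, 5 without W5.0 replicate 2 or 3, and 21 without W3.5 replicate 3. In Bowman it was 0 without W3.5 replicate 1 or W5.0 replicate 2, 1 without W5.0 replicate 4, 2 without W5.0 replicate 3, 4 without W3.5 replicate 2, 19 without W5.0 replicate 1 and 26 without W3.5 replicate 4. Whether the share of called members differed between the lines was not tested. Green leaf markers rose over the first interval in Bowman, while in mnd1.a their sums overlapped between the stages. Their summed level over 89 genes was 731 to 1292 CPM in mnd1.a and 239 to 419 CPM in Bowman at W2.0, and 1026 to 1601 CPM in mnd1.a and 1189.9 to 1608 CPM in Bowman at W3.5, with 3 of them at 0 in every mnd1.a library and 2 in every Bowman library at W2.0. In that step of Bowman, 52 of 72 tested green leaf markers went up and 3 down, 1 of 70 epidermis markers up and 36 down, 20 of 42 vascular markers down, 18 of 32 MADS-box genes up and 2 down, and 1 of 78 transcripts resembling ribosomal RNA up and 70 down. In mnd1.a the same step had 2 green leaf, 6 epidermis and 7 vascular markers down, 1 MADS-box gene up and 2 down, and 62 transcripts resembling ribosomal RNA down. The part of these in the member values was not tested.

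HORVU5Hr1G122660, the BED gene, climbed in both lines from W2.0 to W3.5, by 1.22 ± 0.22 in mnd1.a (adjusted p = 0.00404) and 1.2 ± 0.20 in Bowman (adjusted p = 0.000425). It had 0.994, 1.40 and 1.16 CPM in mnd1.a at W2.0 and 2.56, 2.31 and 3.42 CPM at W3.5, and 1.61, 1.57 and 1.13 CPM, then 3.64, 3.32, 3.10 and 3.20 CPM, in Bowman. From W3.5 to W5.0 it changed by -1.19 ± 0.20 in mnd1.a (adjusted p = 0.00106) and by -0.25 ± 0.18 in Bowman (adjusted p = 0.370). The interaction of line and stage over this interval was not called for it. HORVU7Hr1G002350, on 7H at 4474406 to 4480316, was called upward in both lines in the first interval, by 1.2 ± 0.26 in mnd1.a (adjusted p = 0.0149) and 1.14 ± 0.25 in Bowman (adjusted p = 0.00265). The mnd1.a step of this gene was lost without W2.0 replicate 1 or 2 or W3.5 replicate 3 (adjusted p between 0.0652 and 0.0789).

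The largest step among called members of mnd1.a in the first interval belonged to HORVU3Hr1G012610, a CC-NBS-LRR gene on 3H at 27123636 to 27124560, in the same group of neighbours as HORVU3Hr1G012800. In mnd1.a it had 0.911, 1.09 and 1.16 CPM at W2.0 and 4.27, 3.82 and 3.05 CPM at W3.5, a step of 1.80 ± 0.27 (adjusted p = 0.000631), and in Bowman it had 1.91, 1.16 and 2.06 CPM and then 2.56, 2.99, 2.3 and 2.02 CPM (0.53 ± 0.25, adjusted p = 0.114). The lines overlapped at W2.0, where the highest mnd1.a library equalled the lowest Bowman library, and all mnd1.a libraries were above Bowman at W3.5. Its interaction of line and stage over that interval was not called. From W3.5 to W5.0 in mnd1.a, HORVU0Hr1G008580 went up, with 14.2, 12.2 and 12.7 CPM at W3.5 and 17.6, 20.1, 21.9 and 23.9 CPM at W5.0 (0.68 ± 0.17, adjusted p = 0.0154; 0.0854 without W3.5 replicate 2 and 0.0536 without W5.0 replicate 4). HORVU6Hr1G010100 rose in this interval in both lines, by 0.78 ± 0.19 in mnd1.a (adjusted p = 0.0163) and 0.82 ± 0.18 in Bowman (adjusted p = 0.0204), and each step was lost without any of 3 libraries, to 0.0927 and 0.0707 at most. In mnd1.a the RGA2-type HORVU1Hr1G009560 (-1.83 ± 0.56, adjusted p = 0.0438) and the CC-NBS-LRR gene HORVU2Hr1G107970 (-1.16 ± 0.34, adjusted p = 0.0379) fell, but these calls were lost without any of 6 and of 5 of the 7 libraries, to 0.123 and 0.173 at most.

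In Bowman, the 3 largest called falls between W2.0 and W3.5 were in genes with few counts. The RPM1-type HORVU5Hr1G060970, on 5H at 477795178 to 477796620, had 1.17, 0.817 and 3.66 CPM at W2.0 and 0, 0, 0.0431 and 0 CPM at W3.5, that is 83 counts and then 1 count, a ratio after scaling of 0.00832 with an exact 95% counting interval of 0.000208 to 0.0477 (adjusted p = 8.63e-05). In mnd1.a it had 0.414, 1.25 and 0.487 CPM at W2.0 and 0.142, 0.159 and 0.0610 CPM at W3.5 (adjusted p = 0.0917). Its interaction of line and stage over these stages was not called. HORVU0Hr1G017790 fell by 3.74 ± 0.94 on the log2 scale in Bowman (adjusted p = 0.00759; 0.0649 without W3.5 replicates 2 and 4), with 0 CPM in 3 of 4 libraries at W3.5, and HORVU7Hr1G000690 by 2.28 ± 0.69 (adjusted p = 0.0186; 0.107 without W2.0 replicate 3). HORVU5Hr1G125350 rose by 1.25 ± 0.38 in Bowman (adjusted p = 0.0196), with 12.3, 10.3 and 18.6 CPM at W2.0 and 50.8, 28.5, 22.7 and 29.4 CPM at W3.5, and this call was lost without W2.0 replicate 1 or 2 or W3.5 replicate 1 (adjusted p between 0.0575 and 0.0899).

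From W3.5 to W5.0 in Bowman, where both stages share the prefix, the named steps were less firm. HORVU3Hr1G078990 rose by 0.76 ± 0.20 (adjusted p = 0.0335) and HORVU0Hr1G032250 by 0.94 ± 0.28 (adjusted p = 0.0499), while the RPM1-type HORVU3Hr1G095760 fell by 0.74 ± 0.19 (adjusted p = 0.0305) and HORVU0Hr1G031070 fell to 2 counts at W5.0 after 50 at W3.5 (ratio 0.0350, exact 95% counting interval 0.00413 to 0.133; adjusted p = 0.0408). Each of these was lost without any of at least 5 of the 8 libraries, to an adjusted p of 0.119, 0.146, 0.116 and 0.128 at most in that order. HORVU3Hr1G078990 was also called lower in mnd1.a at W5.0, with 3.79, 3.63, 5.07 and 4.60 in mnd1.a and 5.98, 8.67, 8.84 and 8.56 CPM in Bowman (-0.90 ± 0.21, adjusted p = 0.00327).

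The 5 genes with most counts were all lower on average in mnd1.a at W5.0, and 3 of them were called. Besides HORVU7Hr1G000040 and HORVU7Hr1G000630, they were HORVU1Hr1G083100, HORVU5Hr1G022730 and HORVU1Hr1G004040. Of all 10154 tested genes at 13.3 CPM or more, 39.7% were called at W5.0, 1992 higher and 2041 lower. HORVU1Hr1G083100 ran from 71.6 to 85.3 CPM in mnd1.a and from 70.6 to 101 CPM in Bowman at W2.0, and from 77.7 to 99.6 CPM in mnd1.a and from 96.9 to 131 CPM in Bowman at W5.0, with overlap at both and no call. HORVU1Hr1G004040 ran from 65.9 to 72.6 CPM in mnd1.a and from 75.4 to 92.0 CPM in Bowman at W5.0, without overlap or a call (adjusted p = 0.0701). HORVU5Hr1G022730 had 76.2, 67.1, 66.7 and 71.0 in mnd1.a and 84.9, 124, 102 and 96.0 CPM in Bowman at W5.0, without overlap (-0.54 ± 0.13, adjusted p = 0.00403).

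Other parts of the resistance pathway were read from word patterns on the annotation, outside the same stretches. Genes annotated with the names of resistance regulators, sought by names such as RIN4, SGT1, NPR and MLO, gave 4 calls of 21 at W5.0 (19%), all lower in mnd1.a, against 30.2% of all tested genes and 15.2% lower, and the median log2 fold change was -0.17. Among the called, HORVU4Hr1G084260, annotated as an RPM1-interacting protein, changed most, at 1.74 ± 0.617 in mnd1.a, against 2.98 ± 0.664 CPM in Bowman (n = 4 each, SD; -0.78 ± 0.24, adjusted p = 0.0181). Its highest mnd1.a library, at 2.63 CPM, lay above its lowest Bowman library, at 2.08 CPM, so the lines overlapped. Cell-surface pattern receptors and their partners gave 3 calls of 12 (25%), all higher in mnd1.a, although the list's median was -0.08. Of all tested genes 30.2% were called in either direction and 15% were called higher. HORVU5Hr1G067650, with a LysM domain, which in known receptors binds chitin and related sugars, averaged 9.51 ± 1.49 in mnd1.a and 3.62 ± 1.44 CPM in Bowman (1.38 ± 0.38, adjusted p = 0.0116).

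Downstream kinases and oxidases gave 12 calls of 56 at W5.0 (21.4%), 4 higher and 8 lower in mnd1.a, against 30.2% of all tested genes. The mitogen-activated protein kinase HORVU3Hr1G056200 averaged 104 ± 7.61 in mnd1.a and 166 ± 43.5 CPM in Bowman (-0.67 ± 0.14, adjusted p = 0.00191), and the calcium-dependent kinase HORVU7Hr1G071280 averaged 3.45 ± 0.388 in mnd1.a and 2.14 ± 0.477 CPM in Bowman (0.68 ± 0.20, adjusted p = 0.0173). Receptor-like kinases, which sense signals at the cell surface in growth as well as defence, gave 13 calls of 386 at W3.5 (3.37%), 12 higher and 1 lower, against 3.91% of all tested genes, and 97 at W5.0 (25.1%), 57 higher and 40 lower, against 30.2%. A FERONIA-type kinase, HORVU7Hr1G095450, had 3.79, 0, 2.57 and 3.37 CPM in mnd1.a at W5.0 and 0 in all 4 Bowman libraries. One mnd1.a library was thus at 0 like Bowman, and the lines overlapped. The 121 counts in mnd1.a against 0 in Bowman are at least 57.3-fold higher when Bowman is set to 3 counts over its 4 libraries (adjusted p = 0.0452). Another receptor kinase, HORVU5Hr1G089790, was at 0 in all 4 mnd1.a libraries and had 0.532, 0.321, 0.225 and 0 CPM in Bowman, so the lines overlapped at 0. It was at least 4.93-fold lower in mnd1.a with mnd1.a set to 3 counts over its 4 libraries (adjusted p = 0.0113). The limits given for these kinases take the counts of the line with reads as exact. Counting error there and the spread between libraries could make the folds smaller.

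Markers of other tissues were counted at W5.0 beside the 30.2% of all tested genes. Green leaf genes gave 10 calls higher and 7 lower in mnd1.a of 72 tested (23.6%), with sums of 1071 to 1649.8 CPM in mnd1.a and 1155 to 1777 CPM in Bowman. Epidermis and cuticle genes gave 20 higher and 1 lower of 70 tested (30%), with sums of 1957 to 2246 CPM in mnd1.a and 1514 to 1905 CPM in Bowman, and 8 of 96 at 0 in every mnd1.a library and 5 in every Bowman library. Vascular and secondary wall genes gave 13 of 42 (31%), all higher, with sums of 740.4 to 872 CPM in mnd1.a and 529 to 793 CPM in Bowman, and none of 47 at 0. MADS-box genes, which specify floral organs and meristems, gave 7 of 32 (21.9%), all lower, with sums of 924 to 957 CPM in mnd1.a and 1069.9 to 1391 CPM in Bowman, and 1 of 38 at 0 in every mnd1.a library. At W2.0, 28 of 72 green leaf genes were called, all higher in mnd1.a (38.9%, against 0.79% of all tested genes). There 1 MADS-box gene was called lower, with 0 epidermis and 0 vascular calls. At W3.5, 12 of 32 MADS-box genes were called, all lower (37.5%, against 3.91%). That stage had 4 epidermis genes and 1 vascular gene called higher, and 0 green leaf calls. The part of these in the member values was not tested.

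In the authors' deposited table, the FDR was under 0.05 for 52 of the 261 genes at W5.0, for 2 at W3.5 and for 0 at W2.0. In the authors' deposited table the 52 at W5.0 were 22 higher and 30 lower in mnd1.a, and 44 of them were also among the 54 called here. The share of all genes past this FDR in the authors' deposited table was 1.08%, 2.73% and 26.3% in stage order.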

How the data were processed

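RNA-seq of dissected barley inflorescences was analysed from 1 deposited table of 24318 genes. Its deposited values used here are headed raw counts, per the file headers, and are estimated counts, since 94.8% are not whole. Salmon, limma, GATK and BWA 0.7.15 are listed in the submitters' processing notes with no role given. The authors' deposited log2 fold changes and their FDR values, which are adjusted p-values, were read per the file headers. Of 42 per-sample columns, 21 of counts were used and the other 21 were not. The columns of 1 stage are headed W3.0 and were taken as W3.5, the only labelled stage left for them; their refitted fold changes correlated across genes at r = 0.912 with the authors' values for W3.5. Genes and lists were chosen with earlier results of these data known.

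Estimated counts were rounded, genes were kept by filterByExpr (minimum count 10, minimum total 15; 21132 kept and 3186 removed), and libraries were scaled by TMM. A robust quasi-likelihood model with a mean per group was fitted to all 21 libraries in edgeR 4.0.16 (R 4.3.3). A gene was called at a Benjamini-Hochberg adjusted p under 0.05 over all tested genes, and an adjusted p with no tool named comes from edgeR. Standard errors are the log2 fold change divided by the square root of its F statistic. Alternatives were DESeq2 1.42.0, limma-voom (limma 3.58.1), other scaling, no filter, only the compared groups in the fit, a stricter threshold and leaving out libraries. Added after seeing the data were a replicate block and the removal of ribosomal-RNA-like transcripts. Members named are those called at 2-fold or more between the lines, up to 4 called per interaction, the 3 largest called steps each way, the 5 with most counts and those next to the position limits, and other members were picked after their values were seen. No sequences are shown. The sources used here do not state strand use in counting.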

Additional observations from a re-analysis of the deposited data

Results flagged for a closer look

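In 6 of 47 checks of a named member in a group of 4 libraries, 1 library stood apart from the other three by Dixon's criterion; chance gives about 1 in 20. In Bowman at W3.5, replicate 1 had 0.320 CPM of HORVU0Hr1G017790 and replicate 3 had 0.0431 CPM of HORVU5Hr1G060970, with the other libraries at 0. When the other libraries are all at 0, any count meets the criterion, so the rate of 1 in 20 does not apply to these checks. Bowman W3.5 replicate 3 was also apart for HORVU3Hr1G095760, at 7.37 CPM against 5.48 to 5.62 CPM, and for HORVU7Hr1G002350, at 12.2 CPM against 6.20 to 7.08 CPM. It had the most counts of all libraries. In mnd1.a at W5.0, replicate 1 had 0.577 CPM of HORVU7Hr1G028970, against 0.303 to 0.329 CPM in the others. In Bowman at W5.0, replicate 1 had 5.98 CPM of HORVU3Hr1G078990, against 8.56 to 8.84 CPM in the others.

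The line difference was called as changed from W2.0 to W5.0 in 11 of 216 tested members (5.09%), against 10.3% of all tested genes. Leaving out 1 library moved this count to between 3 and 17. With 1 library left out, the call was kept in 5 of 14 fits for HORVU1Hr1G089960 and 6 for HORVU6Hr1G028220. It was kept in 7 for HORVU6Hr1G010100 and 13 for HORVU4Hr1G051540. Values are on the log2 scale, with edgeR's adjusted p. HORVU0Hr1G015230 changed by 0.87 from W2.0 to W3.5 (adjusted p = 0.00812) and by 0.73 from W2.0 to W5.0 (0.00215). From W2.0 to W5.0 the line difference moved toward mnd1.a for HORVU1Hr1G089960 (1.44, adjusted p = 0.0382) and HORVU6Hr1G010100 (1.01, adjusted p = 0.0285). It moved toward Bowman for HORVU4Hr1G051540 (-1.13, adjusted p = 0.0166), HORVU6Hr1G028220 (-0.99, adjusted p = 0.0395), HORVU3Hr1G113640 (-0.90, adjusted p = 0.0155) and HORVU4Hr1G016010 (-0.81, adjusted p = 0.0156). The same held with smaller values for HORVU5Hr1G072540 (-0.68, adjusted p = 0.0311), HORVU5Hr1G096630 (-0.60, adjusted p = 0.0388), HORVU7Hr1G000040 (-0.58, adjusted p = 0.0187) and HORVU4Hr1G015800 (-0.50, adjusted p = 0.0343). All interactions that reach W5.0 share its difference in library prefix with the line.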

How the results depend on the processing

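At W5.0 the count of called members lay between 47 and 55 with DESeq2, limma-voom, RLE scaling, no filter, the compared groups alone, the replicate block, no ribosomal-RNA-like transcripts and identical members counted once. It was 5 at an adjusted p under 0.01 with 2-fold. No named value reversed its sign. The stricter threshold left 0 at W3.5, 0 and 0 for the interactions from W2.0, and 2, 1, 9 and 0 for the steps (mnd1.a W2.0 to W3.5 and W3.5 to W5.0, then Bowman likewise). DESeq2 gave 6 at W3.5 (4 higher, 2 lower) and 2 for each of the interactions W2.0 to W3.5 and W3.5 to W5.0, and limma-voom gave 4 for the mnd1.a step W3.5 to W5.0. With only the compared groups in the fit there were 1 at W2.0, 0 at W3.5, 0 and 18 for the interactions W2.0 to W3.5 and W2.0 to W5.0, and 17, 23, 19 and 0 for the steps in the order above. Without Bowman W3.5 replicates 2 and 4 the interaction W3.5 to W5.0 gave 1 and the Bowman steps 26 and 24. The cause was not tested.

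Leaving out 1 library gave 0 to 1 calls at W2.0, 2 to 19 at W3.5 (most without Bowman replicate 1) and 32 to 61 at W5.0 (32 without mnd1.a replicate 2, 33 without Bowman replicate 2). The interactions gave 1 to 3, 0 to 3 and 3 to 17 (W2.0 to W3.5, W3.5 to W5.0, W2.0 to W5.0), and the steps 4 to 8 and 1 to 21 in mnd1.a and 32 to 60 and 0 to 26 in Bowman. Deviations from the group means correlated between -0.172 and 0.185 for libraries of the lines with the same replicate number. With so few libraries per group, this cannot settle whether the numbers pair the libraries. With a replicate block, 0, 0 and 48 members were called at the 3 stages. That fit also held only the compared groups and the replicate numbers present in both lines. Among values of named members under alternatives, 425 kept their call and 105 lost it. At these depths, a value under 0.253 CPM can rest on 3 counts or fewer.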
